A study of Mus musculus with 3 samples.

Results

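The genes examined here encode the transcription factor Nrf2 itself (Nfe2l2) and 4 proteins that control it or share its binding sites: Keap1, Mafg, Sqstm1 and Bach1. Binding of Nrf2 around them was taken from a chromatin immunoprecipitation sequencing (ChIP-seq) experiment in mouse embryonic fibroblasts (MEFs). Regions were taken by gene, not by signal: every listed region whose highest position fell in a window of the gene and about 50 kb on each side. The genes themselves were chosen with earlier results of these data known. The windows belonged to 5 genes and covered 650 kb together. They held 3 of the 1256 regions of the deposited list, and these 3 belonged to 2 genes, Mafg and Sqstm1.

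All 3 libraries came from Keap1-/- MEFs, given by the labels as strain CD-1 with a developmental stage of 8-10 weeks, a stage that does not match the embryonic source also given. No treatment is given, and no wild-type cells are in the series as used here. One library was made with a rabbit monoclonal antibody against the C-terminal part of Nrf2 and 1 with a rabbit polyclonal antibody against its N-terminal part. The remaining one was a control, tied to an anti-rabbit IgG antibody by its own label and to input DNA by the design text. Each kind had 1 library, so nothing below has a replicate check, and the deposited list holds no value for a single library. Depth is unknown. The sources used here do not say which bases of Keap1 the knockout allele lacks, whether the cells came from 1 clone or how many embryos they came from. Keap1 protein is the main negative regulator of Nrf2, so the loops described next were examined in cells in which that arm is missing.

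Nrf2 is a basic leucine zipper factor that binds DNA only as a pair with a small Maf protein such as Mafg. The pair recognises antioxidant response elements, whose core is usually written TGACNNNGC. Bach1 also pairs with small Maf proteins, occupies the same elements and represses the genes there until heme displaces it. Keap1 holds Nrf2 in the cytoplasm and delivers it to a ubiquitin ligase built on Cul3, and oxidants and electrophiles that modify Keap1 let Nrf2 escape. Sqstm1 (p62), a receptor of selective autophagy, binds Keap1 and takes it to the autophagosome. Genes of this circuit have been described as Nrf2 targets themselves, which would close feedback loops onto Nrf2. The question here was which of the 5 genes had a listed region in these cells.

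Reference sequence just before the transcription start is shown for 3 of the genes: Mafg, which had a region and holds the core, Sqstm1, which had regions but no core here, and Nfe2l2, which had no region but holds the core. Each runs 5′ to 3′ on the gene's own strand over the 250 bases before the start. The sequences are from RefSeq, build GRCm38.p6: chr11:120633548-120633797 for Mafg, chr11:50210821-50211070 for Sqstm1 and chr2:75704664-75704913 for Nfe2l2, all on the minus strand. Capitals mark each match to the looser core TGANNNNGC on either strand, which takes in every match to TGACNNNGC. These positions cannot be set against those of the regions, which are in the older build mm9.
Mafg: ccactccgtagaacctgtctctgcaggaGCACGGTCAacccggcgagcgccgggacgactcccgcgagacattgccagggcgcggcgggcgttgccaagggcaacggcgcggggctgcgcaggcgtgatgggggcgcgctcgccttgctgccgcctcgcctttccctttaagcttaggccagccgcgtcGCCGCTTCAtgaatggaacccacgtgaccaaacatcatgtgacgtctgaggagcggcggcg
Sqstm1: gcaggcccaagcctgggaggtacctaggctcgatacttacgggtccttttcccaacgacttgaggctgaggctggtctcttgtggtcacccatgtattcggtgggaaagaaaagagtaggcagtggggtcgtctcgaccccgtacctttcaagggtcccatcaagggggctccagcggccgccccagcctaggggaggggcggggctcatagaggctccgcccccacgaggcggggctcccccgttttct
Nfe2l2: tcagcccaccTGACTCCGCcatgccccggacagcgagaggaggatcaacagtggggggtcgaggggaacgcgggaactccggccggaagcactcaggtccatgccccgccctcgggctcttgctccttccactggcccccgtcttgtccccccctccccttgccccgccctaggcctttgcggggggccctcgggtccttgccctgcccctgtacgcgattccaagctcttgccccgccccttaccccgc

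Mafg, the small Maf partner of Nrf2, had the tallest of the 3 regions. It lay at chr11:120491388-120491695 in mm9, 307 bp wide, with its highest position at 120491537 and a height of 20.199. Height is the authors' own value for each region. Its unit and normalization are not given, so it is compared only within the list, where the lowest value was 5, the median 10.1 and the greatest 122.128. The Mafg region ranked 104 of 1256 by height, so that 8.28% of the list was as tall or taller, and it was 2.0 times the median height. It was among 107 regions (8.52%) above a height of 20. On chromosome 11 it ranked 4 of 64, whose greatest height was 36.597. The region was narrower than most, with 25.2% of the list narrower still, and its highest position lay 4.5 bp from its middle.

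The region of Mafg stood by itself. The nearest other listed region was 2.72 Mb before it, with a height of 10.621 (rank 558), and no region of chromosome 11 followed it. Of all listed regions, 7.88% were farther from their nearest neighbour. As the last listed region of its chromosome, the Mafg region was measured only against the region before it. How much of the chromosome lies after it was not measured. Its highest position was 1537 bp past the middle of the window, that is within the central 20 kb left when 50 kb is taken off each side. Mafg is 9839 bp long in RefSeq (GRCm38.p6), and its neighbours among protein-coding genes there are Sirt7, a deacylase of the sirtuin family, and Pycr1, an enzyme of proline synthesis. The window is therefore not specific to Mafg.

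Sqstm1, the Keap1-binding autophagy receptor, had 2 regions, both close to the list median in height. The first lay at chr11:50024428-50024799, 371 bp wide, with its highest position at 50024602 and a height of 9.358. It ranked 796 of 1256 (63.4% of the list as tall or taller), 0.929 times the median height, and 42 of 64 on chromosome 11. In the list, 886 regions had a height of 9 or more. Regions were few just below 9 and more frequent again towards the lowest heights, so this region lay just above that dip. The second lay at chr11:50026266-50026649, 383 bp wide, with its highest position at 50026469 and a height of 11.53. It ranked 446 (35.5% as tall or taller), 1.14 times the median, and 25 of 64 on the chromosome. The second region was thus 1.23 times as tall as the first, and the Mafg region was 1.75 and 2.16 times as tall as the second and the first. No error can be put on these ratios, since the list is the only measurement.

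**Figure D1:**
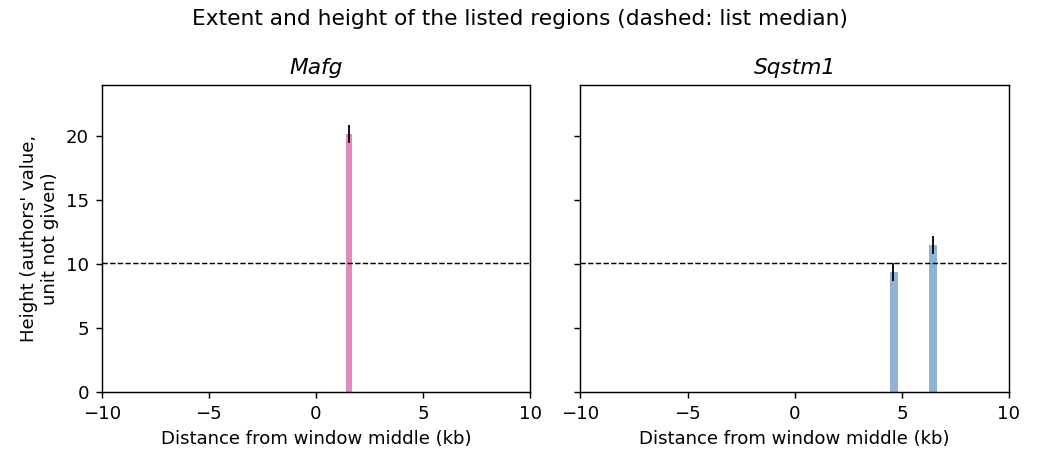
Extent and height of the listed regions at Mafg (left) and Sqstm1 (right), against the distance from the middle of the gene's window in kb. Bars span each region from start to end, black ticks mark the highest position and the dashed line is the list median of 10.1; the Mafg region (20.199) is well above it, and the Sqstm1 regions (9.358 and 11.53) lie on either side of it.

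The highest positions of the 2 Sqstm1 regions were 1867 bp apart, with 1467 bp between the end of one and the start of the other. Neither touched another region, and neither was in a dense stretch (a chain of 5 or more regions, each within 20 kb of the next). Both had their highest position 11.5 bp from the middle of the region. Outside dense stretches, 65 of 1135 regions (5.73%) had another highest position within 2 kb, the Sqstm1 pair included. The pair was otherwise far from any listed region, with the previous one 10.7 Mb before (height 5.699) and the next one 9.39 Mb after (height 10.545). The highest positions were 4602 and 6469 bp past the middle of the window, again within the central 20 kb. Sqstm1 is 10669 bp long in RefSeq (GRCm38.p6), between the protein-coding genes Mrnip, which takes part in the DNA damage response, and Mgat4b, a glycosyltransferase. This window is likewise not specific to Sqstm1.

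**Figure D2:**
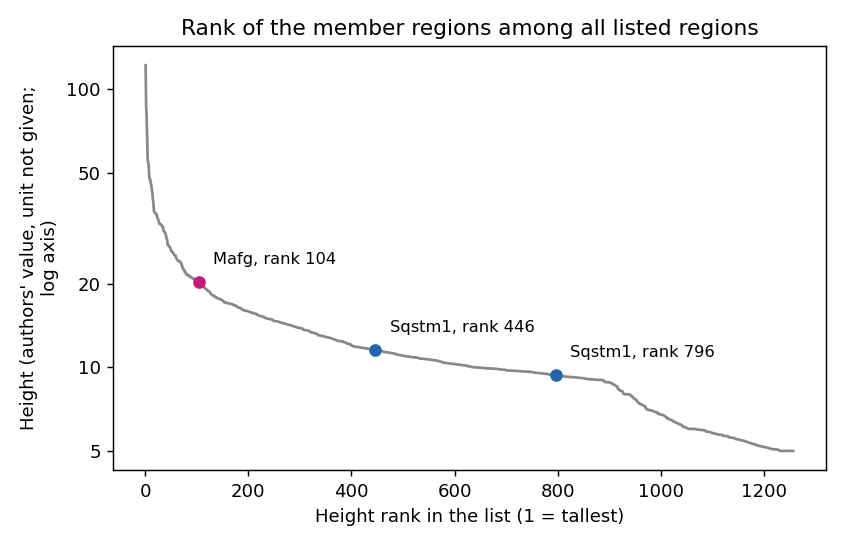
Height of all 1256 listed regions (log axis) against their rank, 1 being the tallest, with the regions of Mafg and Sqstm1 as coloured points. Mafg (rank 104) lies at the lower end of the steep part of the curve, and the Sqstm1 regions (ranks 446 and 796) lie on its flat part.

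No listed region fell in the windows of Nfe2l2, Keap1 or Bach1. For Nfe2l2, the gene of Nrf2 itself, the window was chr2:75460000-75600000. The nearest region after it was 0.947 Mb from its edge, with a height of 9.701 (rank 718), and the nearest before it was 1.63 Mb away, with a height of 5.938 (rank 1082). For Keap1, the inhibitor, the window was chr9:20980000-21100000. Its nearest regions were 1.87 Mb after it, with a height of 12.879 (rank 350), and 3.47 Mb before it, with a height of 6.719 (rank 1005). For Bach1, the competing repressor, the window was chr16:87640000-87790000. Its nearest regions were 5.89 Mb after it, with a height of 25.24 (rank 59), and 13.1 Mb before it, with a height of 9.9 (rank 672).

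These 3 genes therefore had no region within 0.947 Mb of their windows, and none of the 5 windows gained a region when widened by 500 kb on each side. Widening by 1000 kb added 1 region, the one after Nfe2l2. An empty window says only that no region is in the list there. The lowest listed height was 5, but listed regions thinned out below 9, with 886 of 1256 at 9 or more. The height needed for listing is not known, so 5 cannot be read as a uniform limit of detection. Whether Nrf2 was absent or weak signal went unlisted cannot be told apart. At Keap1, reads from any bases deleted in these cells would be missing as well, and the part of that in the empty window was not tested.

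**Figure D3:**
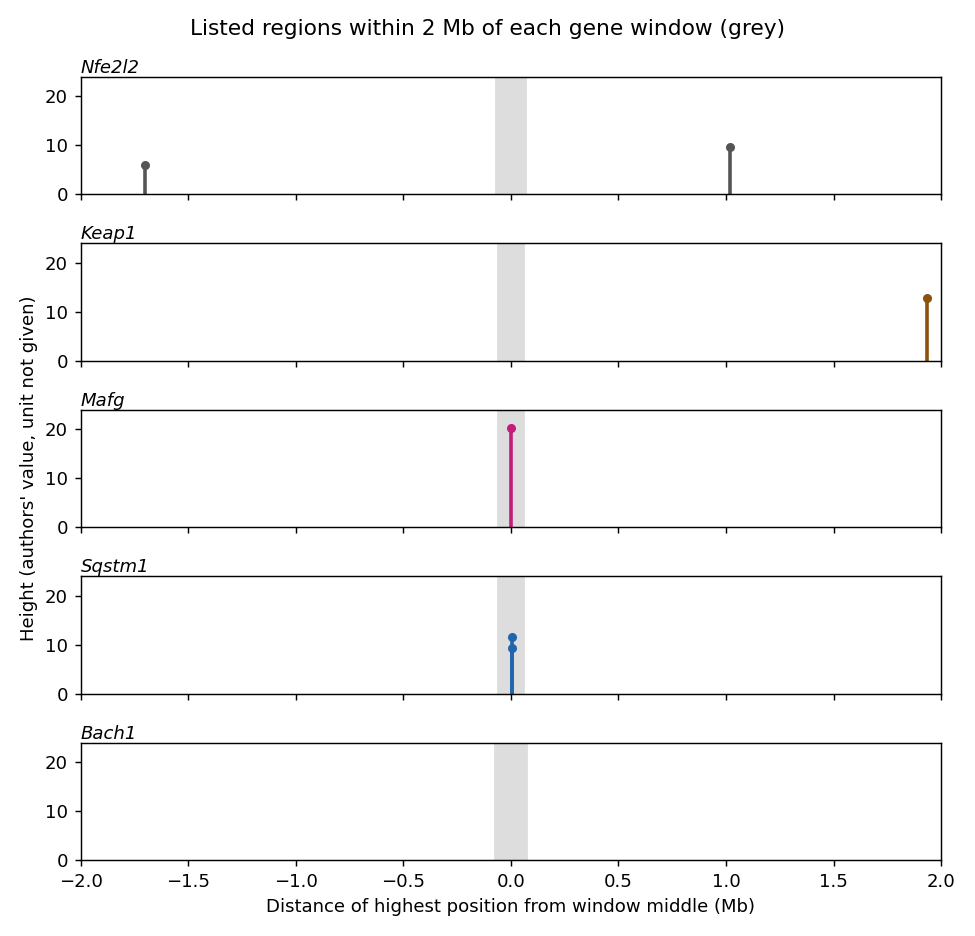
Listed regions within 2 Mb of the middle of each gene's window, with height on the vertical axis and the window shaded grey. Mafg and Sqstm1 have regions only inside their windows, Nfe2l2 and Keap1 only outside them (heights 5.938 and 9.701 for Nfe2l2, 12.879 for Keap1), and Bach1 has none in this span.

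Of the 5 members, 2 had a listed region (Mafg and Sqstm1), set against a background of 4.62% of consecutive 120 kb windows over all chromosomes (1002 of 21686). Windows as wide as those of Nfe2l2 and Bach1, 140 and 150 kb, held a region in 5.30% and 5.71% of cases. On chromosome 11, which carries both genes with a region, the share of 120 kb windows was 5.18%. The Mafg region lay beyond the last whole window there and was not counted in that share. A window with 2 or more regions, as at Sqstm1, made up 0.484%. The 5 windows held 4.62 regions per Mb and the whole list 0.482 per Mb, with chromosome lengths taken up to the last region. The background windows take in gene-poor sequence. The members are 5 genes chosen for their known tie to Nrf2 and with earlier results of these data known. No test was made of the difference.

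The distance from the middle of the window to the nearest highest position is given for each member. A gene with a region in its window must be nearer than a gene with none. The separation of these groups therefore follows from the window rule and is not a further result. It was 1.54 kb at Mafg and 4.6 kb at Sqstm1, and 0.166% and 0.41% of consecutive 120 kb windows had a nearer region. It was 1.02 Mb at Nfe2l2, 1.93 Mb at Keap1 and 5.97 Mb at Bach1, where 47.1%, 66.0% and 90.0% of windows had a nearer one. The median over all such windows was 1.13 Mb. The empty members thus lay near or beyond the middle of that distribution, with Bach1 the most distant of the 5. The member windows were set around genes, while the background windows were placed without regard to genes and take in gene-poor sequence. The shares therefore do not compare these genes with other genes.

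**Figure D4:**
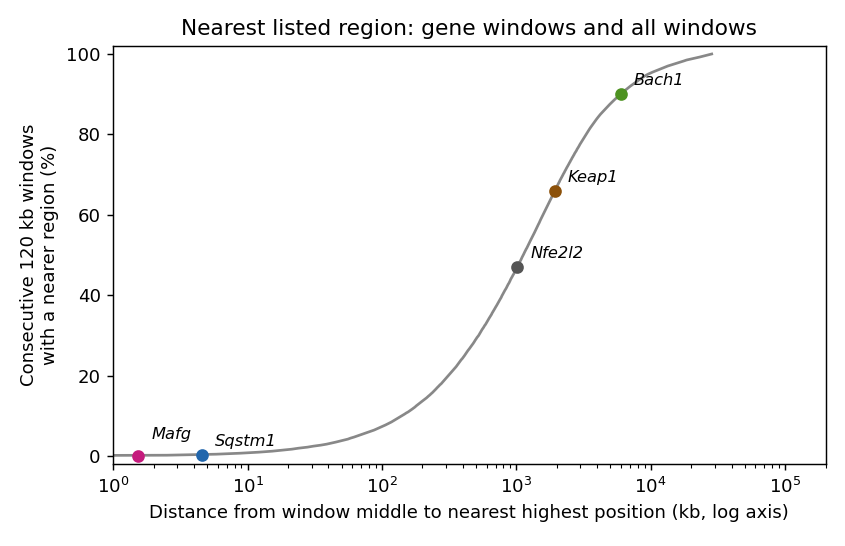
Share of consecutive 120 kb windows with a nearer listed region (grey curve) against the distance from the window's middle to the nearest highest position in kb (log axis), with the 5 genes as points. Mafg and Sqstm1 sit at the foot of the curve (0.166% and 0.41%), while Nfe2l2, Keap1 and Bach1 sit between 47.1% and 90.0%. The windows of the curve were placed without regard to genes. The separation of genes with and without a region follows from the window rule.

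Distances to start sites in bases were not analysed here, because start sites in mm9 were not used. The windows place Mafg and Sqstm1 only to about 20 kb, more than the length of either gene, so whether a region lies in the promoter, an exon, an intron or the flank is not resolved. For the same reason the letters under the regions were not searched for the core.

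The promoters shown above were searched in place of the regions. A match to TGACNNNGC within the 250 bases before the start was found in 2 of the 5 members, Mafg and Nfe2l2, and in 10.2% of 32817 RefSeq promoters searched the same way on both strands. In Mafg it was TGACCGTGC, on the strand opposite to the gene, from 222 to 214 bases before the start. In Nfe2l2 it was TGACTCCGC, on the strand of the gene, from 240 to 232 bases before the start. The looser TGANNNNGC was in 3 members (these and Keap1) and in 35.2% of promoters. The form TGACTCAGC, contained in both, was in none of the 5 and in 0.39% of promoters. Sqstm1 and Bach1 had no match to any of the 3 in this window. A match describes letters and is not a bound site: Nfe2l2 had the core without a listed region nearby, and Sqstm1 had regions without the core in these bases. GC content of these promoters was 68% in Mafg, 63.2% in Sqstm1, 70.4% in Nfe2l2, 69.2% in Bach1 and 49.6% in Keap1, against a median of 52.4% over all promoters.

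Other genes of the circuit were not placed in the list, because their mm9 positions were not used here, and were searched for the core only. Of 9 such genes, 8 were in the RefSeq table: the small Maf genes Maff and Mafk, the related factors Nfe2l1, Nfe2l3 and Bach2, the ligase genes Cul3 and Rbx1, and the kinase gene Gsk3b. The ligase gene Btrc was the ninth. TGACNNNGC was found in 2 of the 8, as TGACTCTGC before Maff and TGACACCGC before Mafk, against 11.5% of genes in the table with a match before any start. The 8 genes have 14 starts in the table, and Maff and Nfe2l1 have more than 1 each, which gives more bases to match. The looser TGANNNNGC was in 5 of the 8 (Bach2, Gsk3b, Maff, Mafk and Nfe2l1), against 38.7% of genes counted the same way.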

How the data were processed

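The authors deposited a single table of 1256 regions, with chromosome, start, end, highest position and height. The file headers name a highest position and a height for each region, the height being the authors' value. Nothing in the sources used here gives its unit or normalization, the software for alignment and region calling, the cutoffs, or how the 3 libraries entered the table. Positions are in mm9 (named as the build in the submitters' processing notes) and are printed as deposited. No value can be traced to 1 library.

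A region belonged to a gene when its highest position fell in the gene's window. All 5 genes are named, as the naming rule set. Regions were ranked by height, with ties given the lowest rank. Background shares came from consecutive whole windows up to the last region of each chromosome. The incomplete stretch at the end, with any region in it, was left out. Of the planned parts, distances to start sites and motifs in regions need mm9 sequence and were not run. The last 250 bases before each RefSeq start (GRCm38.p6) were searched for motifs on both strands, and all 5 genes matched by symbol. Placement, ranking and joining were tested on simulated data. Python 3.11.15, numpy 2.4.6, pandas 2.3.3, scipy 1.17.1 and matplotlib 3.10.9 were used. The members and lists were chosen with earlier results of these data known. Groups of 1 library allow no comparison between antibodies or with the control.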

Additional observations from a re-analysis of the deposited data

How the results depend on the processing

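The count of 3 regions and of 2 genes with a region came out the same with any overlap in place of the highest position, with windows 50 kb wider or 25 kb narrower on each side, with regions within 1 kb joined, and among regions of height 9 or more. None of these settings could have changed the counts. All 3 heights were above 9, and the Sqstm1 regions were 1467 bp apart. The highest positions lay at least 53.5 kb inside the window edges, and no other region lay within 0.947 Mb of a window. The count of regions was 2 among the tallest 50%, where the first Sqstm1 region was left out by construction, and 2 with regions within 2 kb joined, where the Sqstm1 pair became 1. Both settings left 2 genes. Joining within 2 kb was chosen after the data were seen. It moved the first Sqstm1 region from 63.4% of the list as tall or taller to 36.1%, because the joined region takes the greater height. Ranked within chromosome 11, the share moved from 8.28% to 6.25% for Mafg and from 35.5% to 39.1% for the second Sqstm1 region, and fewer regions (64) were ranked. A move was judged against the exact Clopper-Pearson 95% interval of the share, which covers counting error of regions only, as if they were a random sample. The list is fixed, and each alternative ranked a part or a joined form of it. The interval therefore served only as a cutoff and measures no error of the ranks. Of 26 recomputed values, 23 stayed within 1.5 times the count or within that interval, a tally that includes the settings that could not change a count. Shifting the background windows by 60 kb gave 4.56% in place of 4.62%, and leaving out dense stretches also gave 4.56%. Alternatives for start sites and for motifs in regions were not run. No paired analysis was possible because each group has 1 library and the list has no values per library. Depth is unknown, so a low or missing region cannot be set against read number.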

Other observations

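Few regions of the list formed a pair far from all others. Defined after the data were seen as 2 highest positions within 2 kb of each other with no other within 1 Mb on either side, the list held 2 lone pairs. The other had its highest positions 43 bp apart, against 1867 bp at Sqstm1. The 2 kb limit lies just above the Sqstm1 spacing, and pairs spaced wider were not counted, so the number of such pairs rests on this definition. No test was made of the spacing, and whether the 2 Sqstm1 regions come from the same antibody library cannot be read from the list.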
